A study of Mus musculus with 6 samples.

Results

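Endothelial lipase, the product of Lipg, was examined together with 9 genes of other lipases and lipase regulators in leukemia stem cells from mouse bone marrow and liver. The 10 genes (Lipg, Lpl, Lipc, Lipa, Lipe, Pnpla2, Abhd5, Mgll, Angptl4 and Gpihbp1) were taken by symbol and all 10 were found among the 53735 rows of the deposited expression table. The title of the series names LIPG, so the study itself singled out this gene. Leukemia stem cells, which can start the disease again in a new host, were collected from mice of strain C57 on day 13 after the animals had received leukemia cells by transplantation, with no treatment. Bone marrow gave 3 libraries and liver gave 3. The labels give all libraries as male and number them as technical replicates, without naming separate animals, and the leukemia's driving lesion and the sorting markers are not described here. A p-value therefore covers the spread among these 3 libraries of a tissue, and part of that spread may be technical. The sex-linked transcripts given below differed among the 3 libraries of each tissue, so these were not repeats of the same sample.

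Lipases cut ester bonds in fats and release fatty acids. Lipoprotein lipase (Lpl), hepatic lipase (Lipc) and endothelial lipase (Lipg) are secreted and act on lipoproteins at cell surfaces, lipoprotein lipase mainly on triglycerides and endothelial lipase mainly on the phospholipids of high-density lipoprotein. Inside cells, adipose triglyceride lipase (Pnpla2) with its coactivator (Abhd5), hormone-sensitive lipase (Lipe) and monoacylglycerol lipase (Mgll) act in sequence on stored fat, while lysosomal acid lipase (Lipa) degrades fat delivered to the lysosome.

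The libraries held 15.4 to 18.5 M reads in bone marrow and 9.73 to 13.8 M in liver. Values are normalized counts, reads divided by a size factor per library, so that a single read added 0.744 to 0.898 to a bone marrow value and 0.988 to 1.42 to a liver value. Some libraries went against their label: Xist, which is transcribed from an inactive X chromosome, stood at 4860 and 6229 normalized counts in replicate 1 of bone marrow and liver, at 4.28 and 1.42 in replicate 2 and at 2486 and 2425 in replicate 3. The sum of Eif2s3y, Ddx3y, Uty and Kdm5d, genes of the Y chromosome, ran the other way, with 145 and 0 in replicate 1, 2987 and 2675 in replicate 2 and 1553 and 1634 in replicate 3. Results for Lipg are therefore also given without the replicate 1 and without the replicate 3 libraries. The 12 hematopoietic and leukemia progenitor markers, among them Kit, Myb and Hoxa9, were all detected. Their sum ran from 19079 to 21338 for bone marrow libraries and from 19407 to 20296 for those of liver. Within this sum, 2 markers split the tissues, in opposite directions. Cd34 was lower in every liver library (mean 1084 against 1626) and Hoxa9 was higher (mean 2659 against 2286). Neither passed the test described below, and the other markers overlapped between tissues. Cd34 was named after its values were seen.

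Across the 10 genes, the liver libraries differed from bone marrow most in Lipg, which rose. Angptl4 and Abhd5 were higher in every liver library than in any bone marrow library without passing the test, and the other measured genes overlapped between the tissues. The test was limma on log2(normalized count + 1) over all 14298 genes whose mean normalized count was 10 or more, two-sided, with Benjamini-Hochberg adjustment and a threshold of 0.05. It covered 8 of the 10 genes. Lipc and Gpihbp1 fell below the filter. Lipg passed the filter through its liver level alone, so it could hardly have passed without differing, and the following counts are a description. Of the 8 tested genes, 1 passed the threshold (Lipg, higher), against 1.01% of all genes tested in either direction with 0.420% higher and 0.594% lower in liver. At an unadjusted p under 0.05 there were 3 (Lipg, Angptl4 and Abhd5), against 15.7% of all genes. The tissues did not overlap in 3 of the 8, all 3 higher in liver, against 22.3% of all genes tested in either direction, 11.4% higher and 10.9% lower. The median log2 fold change of the 8 was -0.13, with 3 positive and 5 negative, and that of all genes tested was -0.01. On recovered reads, edgeR and DESeq2 each called Lipg alone among the 8, where they called 0.944% and 4.46% of all genes. limma with array weights, whose estimation stopped before converging, called 3 (Lipg, Abhd5 and Lipa), where it called 22.5% of all genes.

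**Figure D1:**
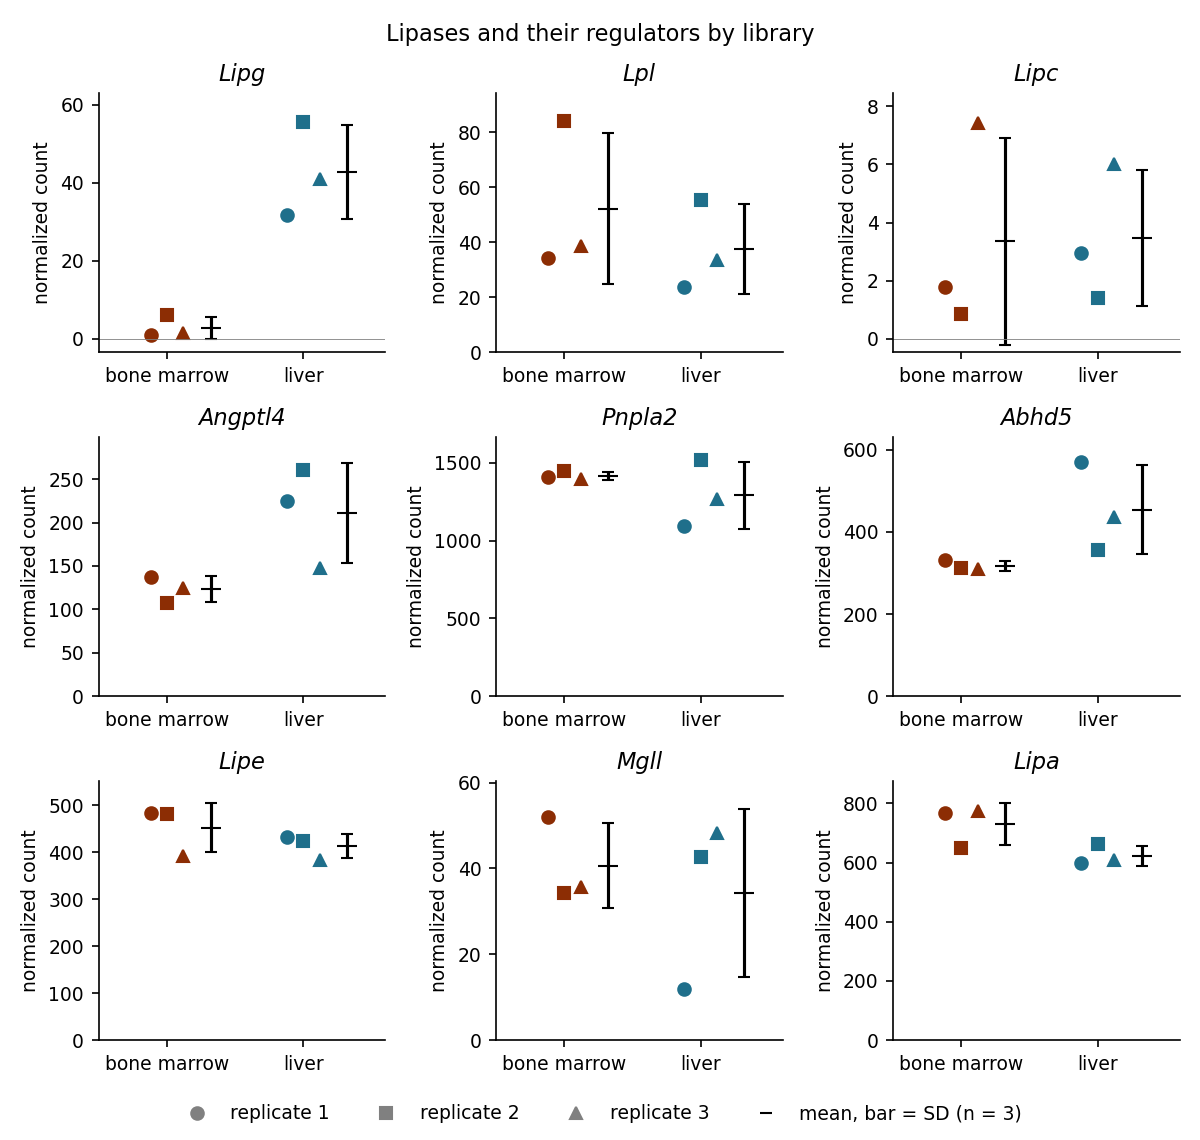
Normalized count of the 9 detected genes in each library (vertical axes start at 0 or just below it; circles, squares and triangles are replicates 1, 2 and 3; the horizontal dash and bar give the mean and SD of 3 libraries). The liver values lie above all bone marrow values for Lipg, Angptl4 and Abhd5 and overlap them for the other 6 genes.

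Of the 3 secreted lipases, Lpl and Lipg reached the filter, Lipg through its liver level alone. The bone marrow mean of Lipg, 2.79 normalized counts, was below that of Lipc (3.36), which the filter left out. That Lipg passed the test is therefore given as a description. Lipg was near the limit of detection in bone marrow, with 0.898, 5.99 and 1.49 normalized counts in replicates 1, 2 and 3, from 1, 7 and 2 reads. In liver it stood at 31.6, 55.4 and 40.9, from 32, 39 and 34 reads. Every liver library thus lay above every bone marrow library, and the lowest liver value came from the deepest liver library. The log2 fold change was 3.73 ± 0.60 (SE; limma adjusted p = 0.042), a 13.3-fold difference on the log2(normalized count + 1) scale with a 95% interval of 5.06 to 34.8. Summed over each tissue, Lipg reads numbered 10 in bone marrow against 105 in liver. Relative to depth this was a ratio of 15.1, with a 95% interval of 7.88 to 32.3 which covers counting error only. Libraries of bulk RNA cannot tell a change in the number of Lipg-expressing cells from a change in the RNA per cell.

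The call for Lipg was lost when any library other than liver replicate 1 was left out, while Lipg was higher in liver in every fit that was run. Because its tissues did not overlap, leaving out libraries could not reverse this direction. When bone marrow replicate 1, 2 or 3 was left out, the limma adjusted p was 0.147, 0.061 or 0.227. When liver replicate 1, 2 or 3 was left out, it was 0.035, 0.095 or 0.227. Calls over all genes, 145 in the main fit, changed in the same fits. They numbered 11, 17 or 6 without bone marrow replicate 1, 2 or 3, and 433, 86 or 8 without liver replicate 1, 2 or 3. The log2 fold change of Lipg was 3.35 to 4.29 in these fits. With both replicate 1 libraries left out the log2 fold change was 3.54 (limma adjusted p = 0.053), and with both replicate 3 libraries left out it was 3.56 (limma adjusted p = 0.87).

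Lipg also followed the order of several marker sums within each tissue. Within both bone marrow and liver it was lowest in replicate 1 and highest in replicate 2. The sum over 12 neutrophil granule and maturation genes, a list chosen after earlier results were known, had this order too, with 410, 658 and 563 normalized counts in bone marrow replicates 1, 2 and 3 and 946, 5993 and 3833 in liver. Both Lipg and this sum were higher in every liver library than in any bone marrow library. Of the 12 genes, 1 was at 0 in all 6 libraries. The values of its single genes are not reported here, so the sum may rest on few of them. The endothelial markers, of which Cdh5, Cldn5 and Emcn were at 0 in all 6 libraries, summed to 1199.5 to 2472 in bone marrow and 1517 to 2557 in liver, chiefly from Pecam1 and Vwf. This sum was also lowest in replicate 1 and highest in replicate 2 of each tissue. Of its 5 genes with a mean of 10 or more, Pecam1 and Tie1 had this order in both tissues. Vwf had it in bone marrow alone (792, 431 and 567 in liver replicates 1, 2 and 3), and Egfl7 and Oit3 had it in neither. Hepatocyte markers were at 0 in all libraries for 8 of 15 genes, including Alb, Ttr and Fgb. The other hepatocyte markers, mainly Apoa1 and Hnf4a, summed to 2909.9 to 6405 in bone marrow and 2549 to 4206 in liver. Macrophage and Kupffer cell markers summed to 1203 to 1457 and 779 to 1744, with the Kupffer cell genes Clec4f, Vsig4 and Cd5l at 0 throughout and the same order of replicates. Cd68 and Adgre1 had this order in both tissues, and Csf1r and Cd163 had it in neither. Tie1, Egfl7, Oit3, Csf1r and Cd163 were named after their values were seen. A list of 10 genes of eosinophils, basophils and mast cells, also chosen with earlier results known, summed to 22800 to 27275 in bone marrow against 15984 to 24738 in liver. The hepatocyte, adipocyte and eosinophil, basophil and mast cell sums and that of the Y chromosome genes were likewise lowest in replicate 1 and highest in replicate 2 of each tissue. The stromal and stellate cell sum and the progenitor sum were not. The order was thus shared by the sums of several lists. In the adipocyte list 0 genes had a mean of 10 or more, and the hepatocyte sum came mainly from 2 genes. Such sums cannot tell whether the order belongs to a cell type. What part any of these cells had in the Lipg difference was not tested.

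Lpl, a gene that macrophages, muscle and fat are known to express, did not pass the test. It stood at 34.1, 83.9 and 38.7 normalized counts in bone marrow replicates 1, 2 and 3 and at 23.7, 55.4 and 33.7 in liver. The tissues overlapped, and replicate 2 was the highest library in both. Lpl had a log2 fold change of -0.43 ± 0.45 (SE; limma adjusted p = 0.70), with a 95% interval of -1.47 to 0.62. The sum of macrophage and Kupffer cell markers was also highest in replicate 2 of each tissue (1457 in bone marrow and 1744 in liver), as were Cd68 and Adgre1. Csf1r was highest in replicate 2 in liver alone, and Cd163 in neither tissue. The part of these cells was not tested. Within each library, the ratio of Lipg to Lpl normalized counts was 0.0263, 0.0714 and 0.0385 in bone marrow replicates 1, 2 and 3, and 1.33, 1.00 and 1.21 in those of liver.

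Hepatic lipase transcripts were close to absent in both tissues. Lipc, a gene of hepatocytes in the liver, had 13 reads over the bone marrow libraries and 9 over the liver libraries. Its values were 1.80, 0.856 and 7.44 normalized counts in the bone marrow libraries and 2.96, 1.42 and 6.02 in liver, so that the tissues overlapped and replicate 3 was highest in each. The difference in mean log2 value was 0.21 (exact two-sided permutation test, p = 0.80, n = 3 each, smallest possible p = 0.10). The read ratio was 0.993 with a 95% counting interval of 0.375 to 2.51.

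Genes that act on secreted lipases outside the cell split into 1 detected and 1 undetected. Angptl4, a secreted inhibitor of lipoprotein lipase that is induced by fatty acids and hypoxia, was at 137, 108 and 124 normalized counts in bone marrow replicates 1, 2 and 3. In liver it was at 224, 260.1 and 148. The tissues did not overlap, although liver replicate 3 was close to bone marrow replicate 1. For Angptl4 the log2 fold change was 0.74 ± 0.23 (SE; 95% interval 0.20 to 1.28), which did not pass over all genes (limma adjusted p = 0.19). It was 0.76 without both replicate 1 libraries and 0.98 without both replicate 3 libraries. Gpihbp1, the endothelial protein that carries lipoprotein lipase to the capillary wall, had 0 reads in all 6 libraries. A count of 0 allows up to 3 reads, or 0.0599 reads per M reads over the bone marrow libraries and 0.0859 over the liver libraries.

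**Figure D2:**
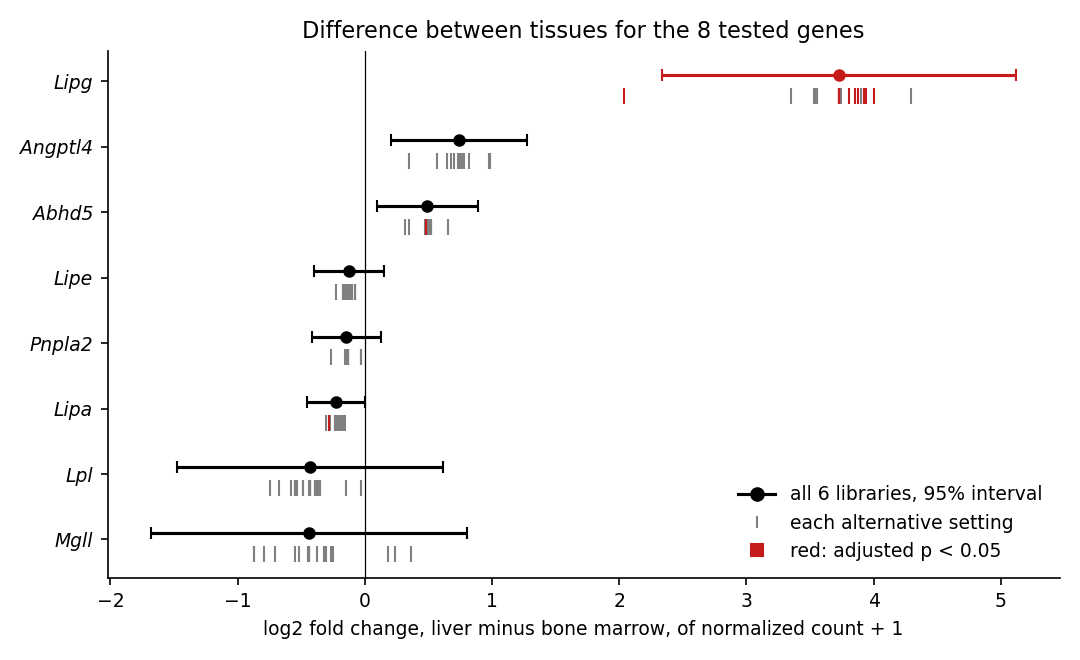
Log2 fold change of liver minus bone marrow for the 8 tested genes (horizontal axis; points and bars give the estimate from all 6 libraries with its 95% interval, ticks below them give each alternative setting, and red marks an adjusted p under 0.05). Lipg lies at 3.73 with every alternative above 2, Angptl4 and Abhd5 stay above 0, and Mgll falls on both sides of 0.

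The intracellular lipases of the triglyceride pathway were expressed in both tissues and overlapped between them. Abhd5, the gene of the coactivator, did not overlap, which held for 22.3% of all genes tested in either direction. Pnpla2, which starts the breakdown of stored triglyceride, was at 1406, 1445 and 1393 normalized counts in the bone marrow libraries and at 1091, 1518 and 1266 in liver. Its bone marrow libraries were tightly grouped and its liver libraries lay on both sides of them. Its log2 fold change was -0.14 ± 0.12 (SE; 95% interval -0.42 to 0.13; limma adjusted p = 0.61).

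Abhd5, whose product activates Pnpla2 at the surface of lipid droplets, was at 331, 312 and 309 normalized counts in bone marrow replicates 1, 2 and 3 and at 570.1, 355 and 437 in liver. All liver libraries lay above all bone marrow libraries, and the liver libraries were spread more widely, with an SD of 108 against 12.3. Abhd5 had a log2 fold change of 0.49 ± 0.17 (SE; 95% interval 0.09 to 0.89), which did not pass over all genes (limma adjusted p = 0.23). It was 0.34 without both replicate 1 libraries and 0.48 without both replicate 3 libraries. Liver replicate 1, which had the most Abhd5, had the least Pnpla2, and liver replicate 2 the reverse. The ratio of Pnpla2 to Abhd5 normalized counts was 4.24, 4.64 and 4.51 in bone marrow and 1.91, 4.27 and 2.90 in liver, so that liver replicate 2 fell within the bone marrow range. Abhd5 lies on chromosome 9 (GRCm38, 122351608 to 122381524, plus strand), where GENCODE M21 places an antisense gene, A730085K08Rik, over part of the Abhd5 exons, and a library that does not mark strand cannot separate the reads of the pair.

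Lipe, hormone-sensitive lipase, which continues the pathway by cutting diglycerides, was at 483, 482 and 392 normalized counts in the bone marrow libraries and 432, 424 and 384 in liver. The ranges overlapped and the log2 fold change was -0.13 ± 0.12 (SE; 95% interval -0.40 to 0.15; limma adjusted p = 0.67). Mgll, which completes it by cutting monoglycerides and also degrades the endocannabinoid 2-arachidonoylglycerol, was at 52.1, 34.3 and 35.7 normalized counts in bone marrow libraries and at 11.9, 42.6 and 48.2 in liver. Liver replicate 1, with 12 reads, stood below all other libraries, and the other 2 liver libraries fell within the bone marrow range. The log2 fold change of Mgll was -0.44 ± 0.53 (SE; 95% interval -1.68 to 0.81; limma adjusted p = 0.75), and without liver replicate 1 it was 0.18. Antisense genes also overlap exons of Lipe (4732471J01Rik) and Mgll (Gm26588).

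Lipa, the acid lipase of the lysosome, was at 768, 649.9 and 773 normalized counts in the bone marrow libraries and 598, 662 and 608 in liver. Bone marrow replicate 2 fell among the liver values, while the other bone marrow libraries lay above them. Its log2 fold change was -0.23 ± 0.10 (SE; 95% interval -0.46 to 0.00287), which did not pass (limma adjusted p = 0.32).

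Between genes, levels were compared as RPKM, reads per kb of exon and per M reads, with exon lengths from GENCODE M21. Pnpla2 was the most abundant of the 10 in both tissues, at 33.9 ± 0.487 in bone marrow and 31.1 ± 4.96 in liver (SD, n = 3 each). In bone marrow it was followed by Lipa (7.80 ± 0.778), Lipe (5.56 ± 0.618), Abhd5 (3.85 ± 0.146) and Angptl4 (2.52 ± 0.307), and no neighbours in this order overlapped. Below them Mgll (0.580 ± 0.141), Lpl (0.235 to 0.576), Lipc (0.114 ± 0.121) and Lipg (0.0427 ± 0.0425) each overlapped with the next.

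In liver the order of RPKM values placed Lipg above the other secreted lipases. Against Lpl this order depended on exon length, taken as all annotated exons joined, which was 4715 bases for Lipg and 10478 for Lpl. Before that correction the liver normalized counts overlapped, at 31.6 to 55.4 for Lipg and 23.7 to 55.4 for Lpl. Pnpla2 was followed by Lipa (6.69 ± 0.326), Abhd5 (5.56 ± 1.36), Lipe (5.11 ± 0.314) and Angptl4 (3.05 to 5.31), of which each overlapped with the next. Lipg followed at 0.658 ± 0.181, separate from Angptl4 but overlapping with Mgll (0.490 ± 0.280), and Lpl (0.261 ± 0.111) overlapped with its neighbours Mgll and Lipc (0.118 ± 0.0797). Lipg was thus ninth of 10 in bone marrow and sixth in liver, and in liver it still stood well below the intracellular lipases Pnpla2, Lipa and Lipe.

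**Figure D3:**
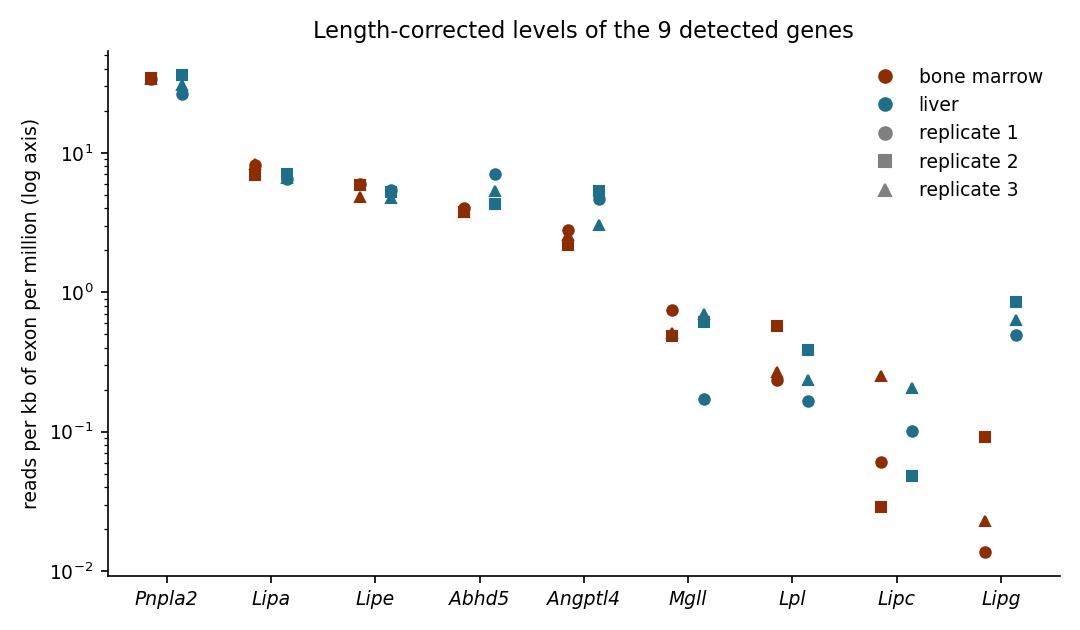
RPKM, reads per kb of exon and per M reads (log axis), for the 9 detected genes, ordered by their bone marrow mean (brown, bone marrow; blue, liver; marker shapes give the replicate). Pnpla2 is highest in both tissues, and Lipg moves from 0.0138 to 0.0915 in bone marrow up to 0.491 to 0.850 in liver.

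Among genes that mature and regulate secreted lipases, the proprotein convertase Furin fell in liver. Furin cleaves many secreted proteins, endothelial and lipoprotein lipase among them. It was at 6758, 8203 and 7551 normalized counts in bone marrow replicates 1, 2 and 3 and at 3920.3, 4540 and 4290.4 in liver, with no overlap. The log2 fold change was -0.82 ± 0.085 (SE; limma adjusted p = 0.017). With bone marrow replicate 1, 2 or 3 left out, the limma adjusted p was 0.035, 0.061 or 0.141, and with liver replicate 1, 2 or 3 left out it was 0.0079, 0.023 or 0.112. It was 0.82 with both replicate 3 libraries left out and 0.0026 with both replicate 1 libraries left out. Leaving out 1 library gave log2 fold changes between -0.89 and -0.75. Of the 15 genes of this list 6 were tested and 1 passed (lower), against 1.01% of all genes tested in either direction and 0.594% lower. The other 5 did not pass, and the median log2 fold change of the 6 was -0.16. The next smallest adjusted p belonged to Sel1l, an endoplasmic reticulum protein needed for lipoprotein lipase to leave that compartment, with a mean normalized count of 1870.2 in bone marrow and 1599 in liver (log2 fold change -0.23, limma adjusted p = 0.12). The lipase maturation factor gene Lmf1 was at 309 and 290.2 (limma adjusted p = 0.82). Apoc2, the cofactor of lipoprotein lipase, and Apoc3 and Apoa5, which modulate it, were at 0 in all libraries. Angptl8, which encodes a secreted regulator of lipoprotein lipase, had 1 read over the bone marrow libraries and 11 over the liver libraries. Lmf1, Apoc2, Apoc3, Apoa5 and Angptl8 were named after their values were seen.

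Other extracellular lipases were close to undetected. Of 13 genes, including the pancreatic lipase gene Pnlip, the gastric lipase gene Lipf and the lecithin-cholesterol acyltransferase gene Lcat, 0 reached the filter. The highest mean over the 6 libraries was that of Pla1a, a phosphatidylserine-specific phospholipase, with a normalized count of 3.67 in bone marrow and 4.27 in liver. Lpl and Lipg were thus the secreted lipase genes that reached the filter, Lipg through its liver level alone.

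In the 6 lists around intracellular lipolysis and its control, 0 of 77 tested genes passed with limma, against 1.01% of all genes tested, and 0 with edgeR, against 0.944%. An unadjusted p under 0.05 was found for 18, against 15.7% of all genes. DESeq2 called 7, against 4.46% of all genes, among them Pla2g15, Pnpla7, Gpat4, Lamp2, Mitf and Adcy7. For lipid droplet proteins and lipolysis regulators, 8 of 16 were tested with a median log2 fold change of 0.04. Fabp5, a fatty acid binding protein gene, had a mean normalized count of 2808 in bone marrow and 2576 in liver (limma adjusted p = 0.32), and Cideb, a lipid droplet protein gene, had means of 88.1 and 104.6 (limma adjusted p = 0.61). The droplet coat gene Plin2 was at 822 and 834, and the Pnpla2 inhibitor gene Hilpda at 363 and 433, while G0s2, which encodes another inhibitor of Pnpla2, and Plin5 were at 0 in all libraries. These last 4 were named after their values were seen. Adipocyte markers had summed normalized counts of 4.49 to 5.99 in bone marrow and 1.98 to 7.11 in liver, with Cidec, Lep and Cfd at 0. Stromal and stellate cell markers summed to 426 to 844 in bone marrow and 286 to 417 in liver, chiefly from Pdgfrb and Col1a2, with Col3a1, Lrat and Rgs5 at 0, and their part in any of these levels was not tested.

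Other intracellular lipases and hydrolases had 13 of 21 genes tested and a median of -0.04. Pla2g15, a lysosomal phospholipase gene, had a mean normalized count of 1414 in bone marrow and 982 in liver, with no overlap (log2 fold change -0.53, limma adjusted p = 0.088). Pnpla7, a lysophospholipase gene of the family of Pnpla2, was at 1457 and 1033 (log2 fold change -0.51, limma adjusted p = 0.15). Lysosomal partners of acid lipase had all 15 genes tested, 3 with positive and 12 with negative fold changes and a median of -0.04. Lamp2, a lysosomal membrane protein gene, was at 2804 and 2286 (log2 fold change -0.30, limma adjusted p = 0.088), and Mitf, a transcription factor gene related to Tfeb, at 110.3 and 53.4 (log2 fold change -1.05, limma adjusted p = 0.097).

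For triglyceride and sterol ester synthesis, 14 of 17 genes were tested, 7 in each direction, with a median of -0.02. Gpat4 and Gpam encode acyltransferases of the first step of glycerolipid synthesis. Gpat4 had a mean normalized count of 788 in bone marrow and 984 in liver (log2 fold change 0.32, limma adjusted p = 0.12) and Gpam had means of 373 and 270.3 (log2 fold change -0.46, limma adjusted p = 0.18), each without overlap between tissues and in opposite directions. Dgat2, which encodes an enzyme of the last step and was named after its values were seen, was at 14.4, 28.3 and 29.7 in bone marrow and 31.6, 92.4 and 55.4 in liver (log2 fold change 1.21, limma adjusted p = 0.27).

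PPAR receptors, which sense fatty acids, and the response to low oxygen both induce Angptl4. Of 14 tested genes among the PPAR genes and the targets of both pathways, 3 had a positive and 11 a negative fold change, with a median of -0.18 and 0 passing with limma. The 3 positive ones were all hypoxia targets, Egln3 (log2 fold change 0.46), Slc2a1 (0.15) and Vegfa (0.04), while the hypoxia target Bnip3 was at -0.23. These genes were named after their values were seen. Ndrg1, a hypoxia-induced gene, had a mean normalized count of 2740.5 in bone marrow and 2241 in liver (log2 fold change -0.29, limma adjusted p = 0.21). Genes of the cAMP pathway, which activates hormone-sensitive lipase by phosphorylation, had a median of -0.01 over 13 tested genes. The adenylate cyclase gene Adcy7 was at 3961 and 3278 (log2 fold change -0.27, limma adjusted p = 0.069).

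**Figure D4:**
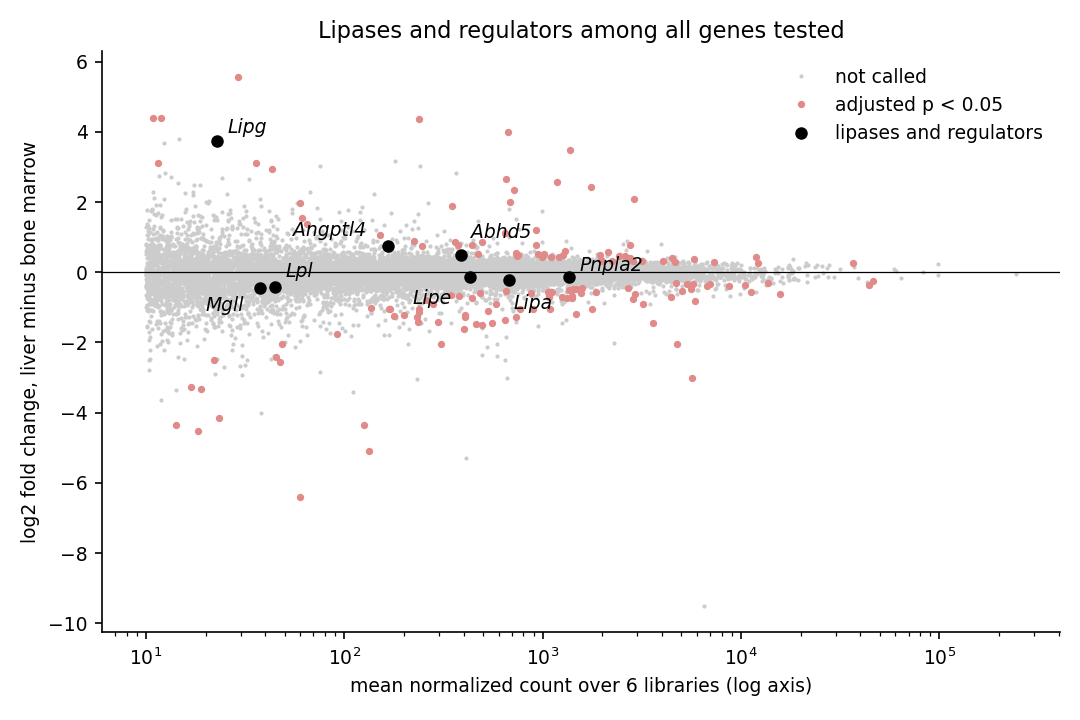
Log2 fold change of liver minus bone marrow against the mean normalized count (log axis) for all 14298 genes tested (grey, not called; pink, adjusted p under 0.05; black, the 8 tested lipases and regulators). Lipg lies at a low mean of 22.7 normalized counts and far above 0, while the other 7 lie between -0.44 and 0.74.

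The genes whose log2 values were most like those of Lipg over the 6 libraries were Sdhd, a subunit gene of succinate dehydrogenase (Pearson r = 0.998), the chaperone gene Hspa8 (0.995), the chaperonin subunit gene Cct6a (0.993), the GTPase gene Rab8a (0.993), RP23-256L12.2 (0.992) and the flap endonuclease gene Fen1 (0.991). They were the highest of 12999 genes whose mean normalized count was 20 or more. All 6 were higher in every liver library than in any bone marrow library, against 11.4% of all genes tested. Picking genes by likeness to Lipg, whose tissues did not overlap, made this split likely, so it is no separate result. Their log2 fold changes of 0.19 to 0.45 were far smaller than that of Lipg. None passed over all genes (limma adjusted p from 0.072 to 0.16). These correlations share the libraries, the tissue split and the order of the replicates, and are a description.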

How the data were processed

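Transcripts were measured by RNA sequencing in 3 bone marrow and 3 liver libraries. What the authors deposited is a normalized signal for every gene, read counts scaled by DESeq2 size factors, going by the table's name and the submitters' processing notes. Those notes list R 3.4.1, DESeq2 1.16.1, STAR 2.6.0c, Trimmomatic 0.36 and bcl2fastq 2.19.0. Per the labels' protocols, the low-input cDNA and tagmentation chemistry does not mark strand. The genome build, annotation and counter: not given in the sources used here. Dividing each library by its smallest value gave whole numbers (within 0.01) for 100% of values, and these were used as reads.

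The main fit was limma 3.58.1 (R 4.3.3) on log2(normalized count + 1), with tissue as the term, a variance trend and a filter at a mean of 10, and it was tested on simulated reads. Folds of low genes are understated on this scale. Other settings tried were pseudocounts of 0.5 and 10, TMM factors, quantile scaling, a filter at 50 or none, robust moderation, array weights, DESeq2 1.42.0 (638 genes called) and edgeR 4.0.16 (135 called) on the reads, a replicate term, thinning, and leaving out 1 library or both replicate 3 libraries. Leaving out both replicate 1 libraries was chosen after seeing the data. The members and gene lists were chosen with earlier results of these data known. Named are the 10 genes, the list genes past the threshold and otherwise the 2 with the smallest adjusted p per list, the 2 highest markers per cell type and the 6 genes most like Lipg. Some genes that this rule names are not reported here. Read intervals and the 3-read floor reflect counting error only. Exon lengths came from GENCODE M21 (GRCm38), matched by symbol for all 10 genes. Plots were made with matplotlib 3.10.9.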

Additional observations from a re-analysis of the deposited data

How the results depend on the processing

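The number of genes called over the whole table was 145. It was 3217 with array weights, whose estimation stopped before converging, 638 with DESeq2, 525 with the replicate number as a block, 16 with that block and without both replicate 3 libraries, 2 without both replicate 3 libraries, 232 without both replicate 1 libraries, and 6 to 433 when 1 library was left out. Of the lipase genes 1 was called. There were 3 with array weights (Lipg, Abhd5 and Lipa), 0 at a mean of at least 50 (where Lipg is not tested), 0 after thinning, 0 without both replicate 1 libraries, 0 without both replicate 3 libraries with or without the block, and 0 to 1 when 1 library was left out.

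Lipg stayed higher in liver in all 20 alternatives and was called in 11, among them the array weights fit that did not converge. Its log2 fold change was 3.90 after thinning (limma adjusted p = 0.065), 3.54 without both replicate 1 libraries (0.053), 3.56 without both replicate 3 libraries (0.87), 3.56 with the block as well (0.22) and 3.35 to 4.29 when 1 library was left out. With the replicate block and all libraries its limma adjusted p was 0.015, and the block changed no other call among the 10 genes. In the pathway lists the block called Furin and 7 further genes (Pla2g15, Pnpla7, Ctsd, Lamp2, Mitf, Adcy7 and Prkar1a). Deviations from the tissue means correlated at 0.44, 0.40 and 0.06 between same-numbered libraries, and liver replicate 3 correlated best with bone marrow replicate 2 (0.15). Xist and the genes of the Y chromosome followed the replicate number in both tissues, so same-numbered libraries may share a source. Because the labels name no animals, the main fit had no replicate term and the block was run as an alternative. Mgll was reversed with array weights (0.23), without both replicate 1 libraries (0.37) and without liver replicate 1 (range -0.79 to 0.18 when 1 library was left out). The log2 difference of Lipc ran from -0.26 to 0.84 when 1 library was left out. The direction of the other 6 tested genes did not change in any alternative. For Lipg, Angptl4 and Abhd5, whose tissues did not overlap, leaving out libraries could not have reversed it. Except where libraries or genes are left out by construction, the cause of these changes was not tested. With 10 reads of Lipg in bone marrow, depth limits the size of its fold change.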
